A study of Mus musculus with 14 samples.

Results

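The genes described here are pericentral Wnt target genes, that is genes known to be kept on by Wnt and beta-catenin signalling in the hepatocytes around the central vein. They were listed by name, from what is known of the pathway, with earlier results of these data already known. The list is Glul, Axin2, Lgr5, Tbx3, Rnf43, Lect2, Oat, Rhbg, Slc1a2 and Notum. Of these 10 genes 7 had a probe set with that symbol, out of 22206 probe sets tested and 19505 gene symbols on the array. Glul, Rnf43 and Rhbg matched no named probe set and have no values here.

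The data are 14 Clariom S mouse arrays. All mice were wild-type C57Bl6 adult males, and for 2 weeks they ate either CSAA, the control diet, or CDAA to which cholesterol, glucose and fructose had been added. Primary hepatocytes were isolated by collagenase perfusion and gave 3 arrays on each diet. Total liver was the caudal lobe of saline-perfused animals and gave 4 arrays on each diet. The series describes the preparations as independent, but how many mice each holds is not given. The p-values therefore measure the spread between these preparations, with a single estimate per probe set shared by the 4 groups. Hepatocyte arrays lay 0.36 to 0.59 from their group means (root mean square over probe sets), and total liver arrays 0.23 to 0.32. A p-value for hepatocytes thus does not rest on the spread of hepatocyte arrays alone. Values are log2 intensities, on which a difference of 1 is a doubling. The tissues look to have been normalized apart, with array medians over the tested probe sets of 4.68 to 4.89 (hepatocytes) and 5.85 to 6.06 (total liver), so levels are not compared between them. Precision is limited by the number of arrays.

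The liver lobule is zoned from the portal vein to the central vein. Endothelial cells of the central vein release Wnt ligands and R-spondins. R-spondins bind the receptors Lgr4 and Lgr5 and keep the ubiquitin ligases Rnf43 and Znrf3 from removing the Frizzled receptors, so that beta-catenin builds up and switches on its targets together with TCF and LEF factors. In the liver those targets include enzymes and carriers that deal with glutamate and ammonia, and feedback genes such as Axin2, Rnf43 and Notum.

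TCF and LEF factors recognise the letters CTTTGAT, read as ATCAAAG on the other strand, and the 3 genes of the set with levels above background are shown with the 250 bases before their start, written 5' to 3' on the gene's strand. The windows are RefSeq's on GRCm38.p6, and capitals mark the motif. They lie at chr2:102706188-102706437 on the plus strand (Slc1a2), chr13:56548539-56548788 on the minus strand (Lect2) and chr7:132576399-132576648 on the minus strand (Oat).
Slc1a2: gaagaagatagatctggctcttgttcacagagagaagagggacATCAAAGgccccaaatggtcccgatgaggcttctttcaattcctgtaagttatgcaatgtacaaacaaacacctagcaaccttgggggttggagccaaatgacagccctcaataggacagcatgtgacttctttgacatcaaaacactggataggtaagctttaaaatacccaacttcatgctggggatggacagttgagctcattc
Lect2: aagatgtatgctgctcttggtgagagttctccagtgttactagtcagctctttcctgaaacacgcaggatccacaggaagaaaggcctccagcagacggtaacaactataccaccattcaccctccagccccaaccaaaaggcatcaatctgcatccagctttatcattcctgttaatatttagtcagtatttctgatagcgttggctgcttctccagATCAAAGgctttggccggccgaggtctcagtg
Oat: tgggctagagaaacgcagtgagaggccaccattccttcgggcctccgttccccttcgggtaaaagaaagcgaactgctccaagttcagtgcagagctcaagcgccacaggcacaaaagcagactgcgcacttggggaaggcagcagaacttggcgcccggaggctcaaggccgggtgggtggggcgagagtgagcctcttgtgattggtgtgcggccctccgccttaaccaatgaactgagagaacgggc
The motif, searched on both strands without allowing a mismatch, began 207 bases before the start of Slc1a2 and 32 bases before that of Lect2, and was not among the letters of the Oat window. Windows were at hand for 6 of the 10 genes, 7 windows in all, and these 2 were the only ones of the 7 that held it. Of all 32851 promoter windows of this length 1053 held it, or 3.21%. A match is a description of the sequence and does not show that a factor binds there.

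Of the 7 genes, only Lect2 passed the test for diet, and only in hepatocytes, where it was higher on CDAA. In total liver none of the 7 passed (limma, Benjamini-Hochberg adjusted p under 0.05 over all probe sets), and 1 of 7, Slc1a2, had an unadjusted p under 0.05. Of all probe sets 10.3% passed in total liver and 18.7% in hepatocytes, so 1 of 7 in hepatocytes is close to the share among all probe sets. By direction, 6.73% were higher and 3.54% lower on CDAA in total liver, and 11% and 7.74% in hepatocytes. In hepatocytes 2 of 7, Lect2 and Notum, had an unadjusted p under 0.05. No member passed the test of the difference between the tissues (limma, 2.57% of all probe sets), and Lect2 and Oat, 2 of 7, had an unadjusted p under 0.05 there. Limma with trend and robust moderation gave the same counts of 0, 1 and 0.

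**Figure D1:**
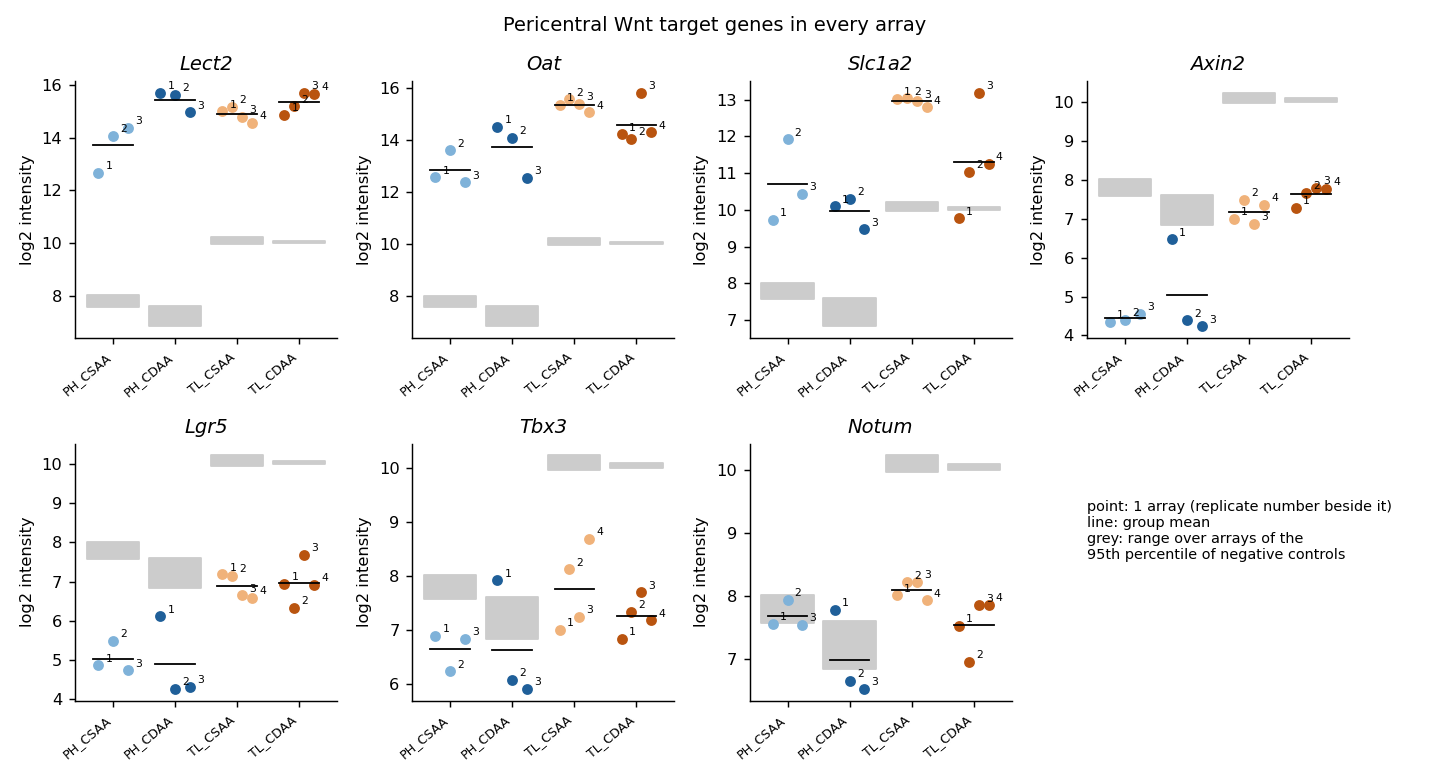
Log2 intensity of each of the 7 genes in every array, by tissue and diet. Points are arrays with their replicate number, lines are group means, and grey bands span the 95th percentile of intron controls over the arrays of a group. Only Lect2 in hepatocytes has a diet difference past the test, and Axin2, Lgr5, Tbx3 and Notum lie within or under the grey bands but for single hepatocyte arrays on CDAA.

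Lect2 encodes a protein that hepatocytes secrete, and it is a known beta-catenin target. In hepatocytes its log2 level was 12.68, 14.08 and 14.38 on CSAA and 15.72, 15.64 and 14.97 on CDAA. Every CDAA array was above every CSAA array. The mean rose from 13.71 ± 0.90 (SD, n = 3) to 15.44 ± 0.41 (SD, n = 3), a log2 difference of 1.73 ± 0.38 (SE) or 3.32-fold, with a limma adjusted p of 0.00389 and a 95% interval of 0.93 to 2.54. The call held in each of the 14 fits that left out 1 array, with differences of 1.22 to 2.06 (adjusted p 0.00163 to 0.0203). It was lost when the hepatocyte arrays were fitted alone, with an SE of 0.47 and a limma adjusted p of 0.0691 for the same difference.

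In total liver Lect2 was at 15.02, 15.18, 14.80 and 14.58 on CSAA and at 14.87, 15.21, 15.71 and 15.68 on CDAA. The groups overlapped. The log2 difference was 0.47 ± 0.33 (SE) with a limma adjusted p of 0.416. The diet difference in total liver minus that in hepatocytes was -1.26 ± 0.50 (limma adjusted p of 0.305), so a difference between the tissues did not pass the test.

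Oat encodes ornithine aminotransferase, which turns ornithine into a precursor of glutamate. In total liver it was at 15.36, 15.56, 15.38 and 15.06 on CSAA and at 14.21, 14.05, 15.82 and 14.30 on CDAA. On CDAA 3 of 4 arrays were below every CSAA array, and replicate 3 was above all of them. The log2 difference was -0.74 ± 0.44 (SE), with a 95% interval of -1.67 to 0.18 and a limma adjusted p of 0.326. Without CDAA replicate 3 it was -1.15 with a limma adjusted p of 0.093.

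In hepatocytes Oat was at 12.56, 13.60 and 12.38 on CSAA and at 14.52, 14.08 and 12.55 on CDAA. Here 2 of 3 CDAA arrays were above every CSAA array, and replicate 3 lay among the CSAA arrays. The log2 difference was 0.87 ± 0.50 (SE), with a limma adjusted p of 0.263. Without CDAA replicate 3 it was 1.45 with a limma adjusted p of 0.0397, and without CDAA replicate 1 it was 0.47 with a limma adjusted p of 0.561. The mean was thus lower on CDAA in total liver and higher in hepatocytes, and the difference between these contrasts was -1.61 ± 0.66 (limma adjusted p of 0.332).

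Slc1a2 encodes the glutamate transporter GLT-1, which in liver is made by the pericentral hepatocytes that also make glutamine synthetase. On CSAA it ranked at percentiles 92.6 to 93.5 of its array in total liver and 85.9 to 93.7 in hepatocytes. In total liver it was at 13.03, 13.04, 12.95 and 12.79 on CSAA and at 9.77, 11.04, 13.19 and 11.25 on CDAA. The CSAA arrays lay within a narrow band, 3 of 4 CDAA arrays were far below it, and CDAA replicate 3 was above it. CDAA replicate 1 was under the background level of its array. The mean was 12.95 ± 0.11 (SD, n = 4) on CSAA and 11.31 ± 1.41 (SD, n = 4) on CDAA, a log2 difference of -1.64 ± 0.56 (SE), or 3.11-fold lower, with a 95% interval of -2.83 to -0.45 and a limma adjusted p of 0.0798. Without CDAA replicate 3 the difference was -2.26 with a limma adjusted p of 0.00477, and without CDAA replicate 1 it was -1.12 with an adjusted p of 0.254. With centring on hepatocyte genes it was -0.17 (limma adjusted p of 0.753), on a scale where the median difference of all probe sets was 1.37. The adjusted p was under the threshold with the total liver arrays fitted alone (0.0493), with arrays centred on their medians (0.0485) and with array weights (0.03), all by limma.

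In hepatocytes Slc1a2 was at 9.73, 11.92 and 10.43 on CSAA and at 10.10, 10.31 and 9.47 on CDAA. The groups overlapped, with CSAA replicate 2 the highest of all. The log2 difference was -0.73 ± 0.65 (SE), with a 95% interval of -2.11 to 0.64 and a limma adjusted p of 0.481. Leaving out 1 array gave -1.22 to -0.12, the former without CSAA replicate 1 and the latter without CSAA replicate 2.

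**Figure D2:**
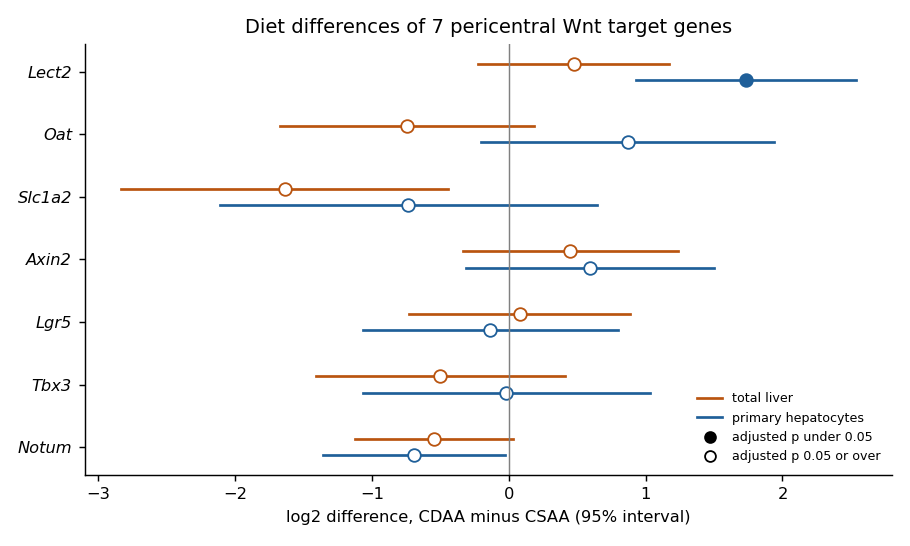
Log2 difference, CDAA minus CSAA, of each gene in total liver and in hepatocytes with its 95% interval, filled where the limma adjusted p is under 0.05. Lect2 in hepatocytes, at 1.73, is the only filled point, and the widest shift the other way is that of Slc1a2 in total liver, at -1.64.

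The other 4 genes are regulators of the pathway or of cell identity, and their probe sets were dim. A level was taken as background where all arrays of a group were under the 95th percentile of 5222 intron control probe sets on the same array, which was 6.84 to 8.01 in hepatocyte arrays and 9.96 to 10.23 in total liver arrays. Axin2, Lgr5, Tbx3 and Notum were under it on every total liver array and every CSAA hepatocyte array, so the size of a fold change is not known for them. Intron control probe sets can also pick up unspliced RNA.

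Axin2, a scaffold of the complex that destroys beta-catenin and a feedback target, was at 6.99, 7.48, 6.86 and 7.35 in total liver on CSAA and at 7.27, 7.66, 7.78 and 7.76 on CDAA. The groups overlapped, and the log2 difference was 0.45 ± 0.37 (SE, limma adjusted p of 0.502). In hepatocytes it was at 4.35, 4.40 and 4.56 on CSAA and at 6.46, 4.39 and 4.24 on CDAA. CDAA replicate 1 alone stood above the others, and the difference was 0.59 ± 0.43 (SE, limma adjusted p of 0.374) with it and -0.12 without it.

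Notum, a secreted enzyme that strips the lipid from Wnt ligands and thereby inactivates them, was at 8.01, 8.22, 8.23 and 7.93 in total liver on CSAA and at 7.53, 6.96, 7.85 and 7.86 on CDAA. Every CDAA array was below every CSAA array. It was 1 of 7 genes whose total liver groups did not overlap, against 25.1% of all probe sets, and Lect2 was 1 of 7 in hepatocytes, against 26.6%. The log2 difference of Notum was -0.55 ± 0.27 (SE, limma adjusted p of 0.241), and -0.35 (adjusted p of 0.503) without CDAA replicate 2. In hepatocytes it was at 7.56, 7.94 and 7.54 on CSAA and at 7.78, 6.65 and 6.53 on CDAA, a difference of -0.69 ± 0.31 (SE, limma adjusted p of 0.145). CDAA replicate 1 lay among the CSAA arrays, and without it the difference was -1.09 with a limma adjusted p of 0.00609. Without CDAA replicate 3 it was -0.46 with a limma adjusted p of 0.366.

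Lgr5, a receptor for R-spondins, differed by 0.08 ± 0.38 (SE, limma adjusted p of 0.928) in total liver, where it ran from 6.58 to 7.18 on CSAA and from 6.33 to 7.68 on CDAA. In hepatocytes it was at 4.86, 5.49 and 4.73 on CSAA and at 6.11, 4.26 and 4.31 on CDAA, a difference of -0.13 ± 0.44 (SE, limma adjusted p of 0.871). Tbx3, a transcriptional repressor, reached 8.69 in total liver on CSAA and ran from 6.84 to 7.70 on CDAA, with overlap, a difference of -0.50 ± 0.43 (SE, limma adjusted p of 0.521). In hepatocytes it was at 6.90, 6.24 and 6.84 on CSAA and at 7.92, 6.09 and 5.91 on CDAA, a difference of -0.02 ± 0.49 (SE, limma adjusted p of 0.986). For both genes CDAA replicate 1 was the highest hepatocyte array and the other CDAA arrays were the lowest.

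Single arrays of the CDAA groups thus stood apart over most of the 7 genes. Total liver CDAA replicate 3 was the highest of its group in 6 of 7, against 25.1% of all probe sets. Hepatocyte CDAA replicate 1 was the highest of its group in 6 of 7, against 37.8%, and hepatocyte CDAA replicate 3 the lowest in 6 of 7, against 36%. Among other pericentral genes, total liver CDAA replicate 3 was highest in 11 of 17 and replicate 1 lowest in 10, while hepatocyte CDAA replicate 1 was highest in 12 of 17 and replicate 3 lowest in 14. The order in hepatocytes was not particular to pericentral genes: replicate 1 was also highest in 18 of 23 genes of beta-catenin signalling, and replicate 3 was lowest in 10 of 15 periportal genes and 10 of 12 sinusoidal endothelial markers. Other lists ran the other way, with replicate 1 lowest in 8 of 10 Kupffer cell markers and 8 of 9 recruited macrophage markers. It was highest in 7 of 11 hepatocyte markers. The part of cell content in these orders was not tested. In total liver CDAA replicate 3 was highest in 6 of 15 periportal genes and 7 of 12 sinusoidal endothelial markers, of which replicate 1 was lowest in 10.

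**Figure D3:**
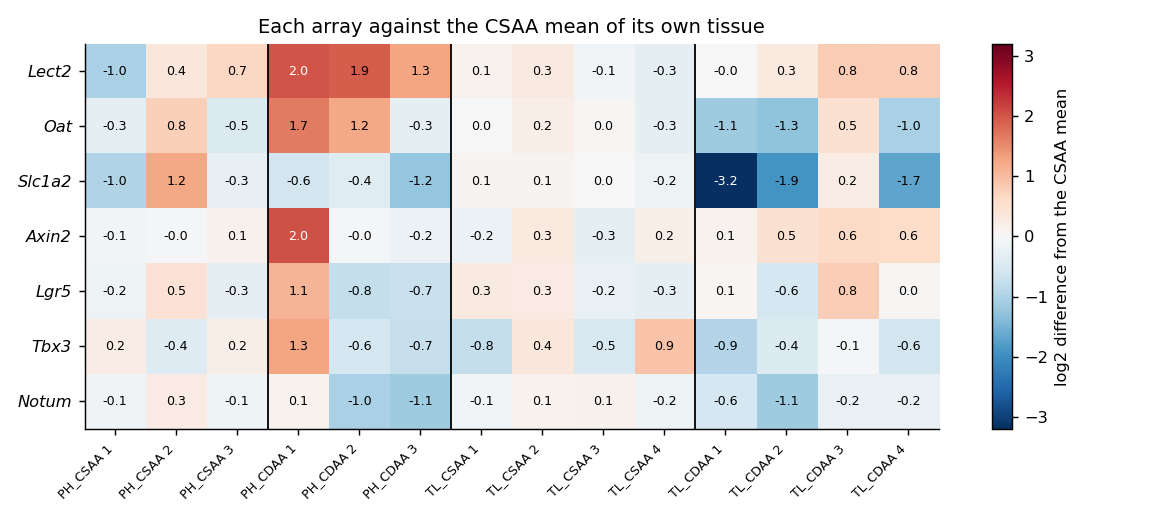
Each array's log2 value minus the CSAA mean of its own tissue, for the 7 genes (rows) in the 14 arrays (columns). Red is higher and blue lower than CSAA. Total liver CDAA replicate 3 lacks the blue of its group in Oat and Slc1a2, and hepatocyte CDAA replicate 1 is red in Axin2, Lgr5 and Tbx3 where replicates 2 and 3 are blue or pale.

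The median log2 difference over the 7 genes was -0.50 in total liver, beside -0.09 over all probe sets, and -0.02 in hepatocytes, beside -0.13. Both medians over the 7 genes are the values of Tbx3, a dim gene whose fold change has no known size. In each tissue 3 of the 7 were higher and 4 lower on CDAA, whatever their p. The signs depend on the scale. With arrays centred on 13 hepatocyte genes the median of all probe sets moved to 1.37 in total liver and 1.53 in hepatocytes, and 6 and 7 of the 7 genes were then higher, with 5 and 6 called. Relative to that median the 7 genes stood at -0.41 and 0.11, as on the deposited scale. The 13 were those with means under 16 in a list of 25 hepatocyte genes, of which 23 were measured. The median of the 13 was itself lower on CDAA on the deposited scale. In total liver it was at 12.8 to 13.2 on CDAA and 14.3 to 14.7 on CSAA, and in hepatocytes at 11.8 to 11.9 and 13.4 to 13.7. Of the 23 measured genes, 7 fell in total liver and 20 in hepatocytes.

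The cell type markers bear on what the hepatocyte arrays measured. All 11 measured hepatocyte markers were above background in every group. On CSAA all 10 Kupffer cell markers were under background in hepatocytes, and on CDAA none was. The mean of the Kupffer list was higher by 6.18 to 7.75 in the CDAA hepatocyte arrays than the CSAA mean, that of 9 recruited macrophage markers by 5.54 to 7.36, that of 12 sinusoidal endothelial markers by 3.03 to 4.28, that of 10 stellate cell markers by 3.35 to 4.00 and that of 8 central vein endothelial markers by 1.73 to 2.13. In total liver the same means were higher by 1.57 to 2.18 for Kupffer cells, by 4.68 to 5.64 for recruited macrophages, by 1.03 to 2.10 for stellate cells and by 0.51 to 0.80 for central vein endothelium, and they ran from -0.23 to 0.57 for sinusoidal endothelium. All 8 central vein markers were under background on CSAA in both tissues, and on CDAA 5 were in hepatocytes and 7 in total liver. On CSAA 9 stellate and 8 recruited macrophage markers were under it in hepatocytes, and 8 and 8 in total liver. The sizes of these rises in list means are therefore not known. The part of these cells in the differences of the 7 genes was not tested, and in bulk RNA fewer cells of a type cannot be told apart from less RNA per cell. The mean of the hepatocyte markers was lower by 0.11 to 0.86 in the CDAA hepatocyte arrays and by 0.02 to 0.08 in those of total liver.

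**Figure D4:**
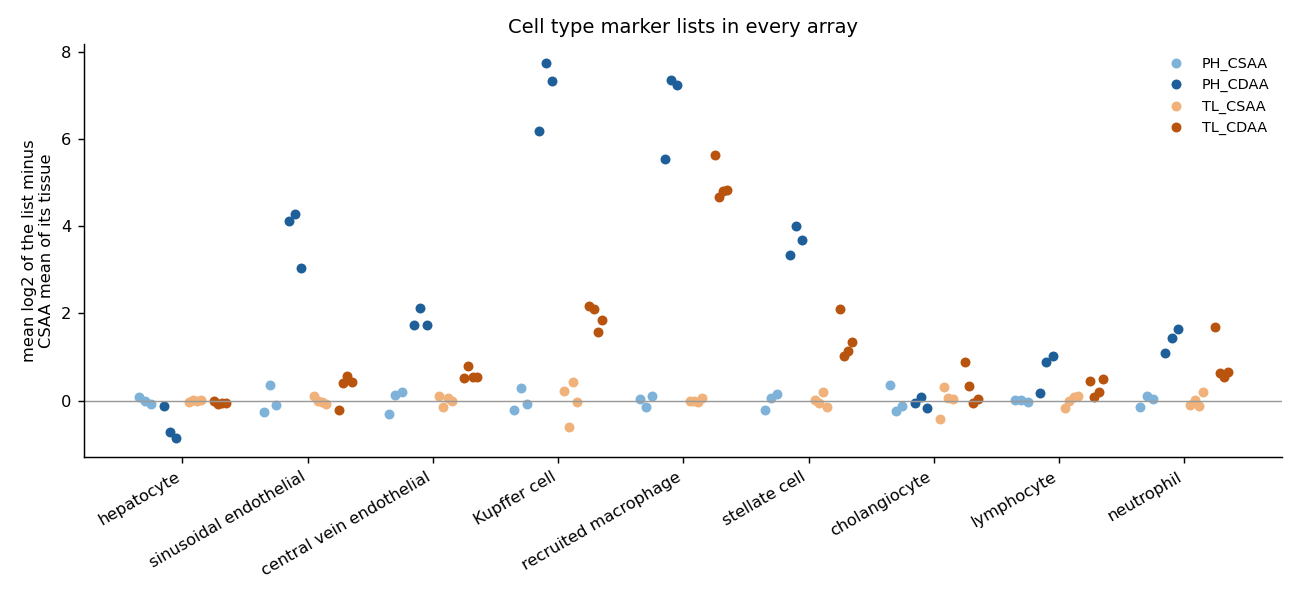
Mean log2 of each cell type's marker list in every array, minus the CSAA mean of the same tissue. Points are arrays, coloured by tissue and diet. Kupffer cell and recruited macrophage markers reach 7.75 and 7.36 above CSAA in hepatocytes on CDAA, while hepatocyte markers lie between -0.86 and 0.08 in all arrays. Most markers of those 2 macrophage lists were under background in hepatocytes on CSAA.

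The genes upstream of these targets were described from lists of the pathway, whose counts are to be read against the 10.3% of all probe sets called in total liver and 18.7% in hepatocytes. Among 25 Wnt ligands, R-spondins and their secretion factors, none passed in total liver (limma, with 2 at an unadjusted p under 0.05 and 0 with trend and robust moderation). All 25 were under background in total liver on both diets, so the lack of calls there says little about them. In hepatocytes 25 were under background on CSAA and 23 on CDAA. In hepatocytes 3 were higher and 1 lower. Rspo3, an R-spondin made by endothelial and stellate cells near the central vein, was at 4.04, 4.41 and 3.40 on CSAA and at 8.76, 9.29 and 9.06 on CDAA. All CSAA arrays were under background, so the rise was at least 2.45-fold (log2 difference of 5.09 ± 0.27 SE, limma adjusted p of 3.34e-09). In total liver, where Rspo3 was under background on both diets, the difference was 0.44 ± 0.23 (limma adjusted p of 0.269). The fitted difference between the tissues passed the limma test (adjusted p of 6.95e-06), but its size is not known. Wls, which carries Wnt ligands to the cell surface, rose at least 2.66-fold in hepatocytes (4.72 ± 0.52 SE, limma adjusted p of 6.91e-06). These rises stood beside those of the endothelial and stellate markers given above, and the part of such cells was not tested.

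Wnt2, an endothelial ligand, was under background in all groups and differed by 1.25 ± 0.34 (limma adjusted p of 0.0175) in hepatocytes and by -0.06 in total liver. Rspo2, also under background throughout, differed by -0.76 ± 0.21 in hepatocytes (limma adjusted p of 0.0208). Wnt9b, another central vein ligand, differed by -0.34 ± 0.17 in total liver and -0.17 ± 0.20 in hepatocytes, with limma adjusted p of 0.255 and 0.598. The call of Wnt2 was lost without hepatocyte CSAA replicate 1 or CDAA replicate 2 or 3, and that of Rspo2 without CSAA replicate 2 or CDAA replicate 2. The count of 4 in hepatocytes fell to 2 without CDAA replicate 2, and the count in total liver was 1 without hepatocyte CDAA replicate 1.

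Among 14 receptors and co-receptors 1 fell in total liver and 3 in hepatocytes, and none rose. Lgr4, the R-spondin receptor that hepatocytes express broadly, was at 13.33, 13.31, 13.27 and 13.34 in total liver on CSAA and at 11.89, 11.89, 12.30 and 12.31 on CDAA. The groups were far apart, and Lgr4 fell 2.32-fold (limma adjusted p of 0.0127), although its difference turned to 0.25 when arrays were centred on the hepatocyte genes. In hepatocytes it was at 12.51, 12.39 and 12.55 on CSAA and at 11.30, 9.71 and 9.64 on CDAA, a 4.82-fold fall (limma adjusted p of 0.000131), which under that scaling shrank to -0.61 and was no longer called (adjusted p of 0.0889). On the deposited scale its call held in each of the 14 fits that left out 1 array, in both tissues. Fzd8, a Frizzled receptor, fell by 1.63 and Lrp6, the Wnt co-receptor, fell by 1.46 on the log2 scale in hepatocytes (limma adjusted p of 0.0164 and 0.0339), and both turned positive under the hepatocyte scaling. That scaling moved the median difference of all probe sets to 1.37 in total liver and 1.53 in hepatocytes, so modest falls of any gene turn positive under it. Fzd8 was not called without CSAA replicate 3 or CDAA replicate 2, nor Lrp6 without CSAA replicate 1 or 2 or CDAA replicate 2 or 3. The count in hepatocytes was 6 without CDAA replicate 1 and 1 without CDAA replicate 2. Znrf3, the ligase related to Rnf43, differed by -0.03 ± 0.32 in total liver and -0.39 ± 0.37 in hepatocytes (limma adjusted p of 0.975 and 0.52). Without hepatocyte CDAA replicate 1 the latter was -0.87 with a limma adjusted p of 0.0481.

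Among 18 secreted and membrane inhibitors 2 rose in each tissue, Frzb and Dkk3, and none fell. Frzb, a decoy for Wnt ligands, rose at least 1.72-fold in hepatocytes (4.49 ± 0.30 SE, limma adjusted p of 4.04e-08) and by 2.46 ± 0.26 on the log2 scale in total liver (limma adjusted p of 1.69e-05), where it stayed under background. Dkk3 was under background in all groups, with differences of 1.18 ± 0.28 and 0.93 ± 0.24 (limma adjusted p of 0.00649 and 0.0208). In total liver the count was 1 without CSAA replicate 1 or 2 or CDAA replicate 1, 3 or 4.

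Of 23 genes that carry the signal inside the cell, 1 fell in total liver, and 3 fell and 1 rose in hepatocytes. These counts, 1 and 4 of 23, are no higher a share than the 10.3% and 18.7% of all probe sets. Ctnnb1 itself matched no named probe set. Tle1, a co-repressor bound to TCF factors, fell by 1.02 ± 0.26 in total liver and 1.21 ± 0.30 in hepatocytes on the log2 scale (limma adjusted p of 0.0182 and 0.00866), and turned to 0.45 in both under the hepatocyte scaling. Dvl1, Ctnnbip1 and Tle4 were the other calls in hepatocytes, each kept in 10 of the 14 fits that left out 1 array. Ctnnbip1 was also not called by limma with trend and robust moderation (adjusted p of 0.0531) or with the replicate block (adjusted p of 0.0519). The hepatocyte count was 8 without CDAA replicate 1, 1 without CDAA replicate 2 and 2 without any of the CSAA arrays, and the total liver call was lost without CSAA replicate 1 or 4 or CDAA replicate 1 or 2.

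Of 5 other Wnt targets measured, Cd44, a hyaluronan receptor that many leukocytes also carry, rose at least 1.83-fold in total liver and at least 18-fold in hepatocytes (limma adjusted p of 4.37e-06 and 1.42e-09). The means of the macrophage markers given above were also higher on CDAA in both tissues, and their part in the rise of Cd44 was not tested. Tnfrsf19 was called in total liver, under background, at 0.74 ± 0.21 (limma adjusted p of 0.0347), and 7 of the 14 fits that left out 1 array did not call it. Those were the fits without any 1 of the CSAA arrays or without CDAA replicate 1, 3 or 4. In hepatocytes 1 of the 5 was called, and 2 without CSAA replicate 1 or 2.

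**Figure D5:**
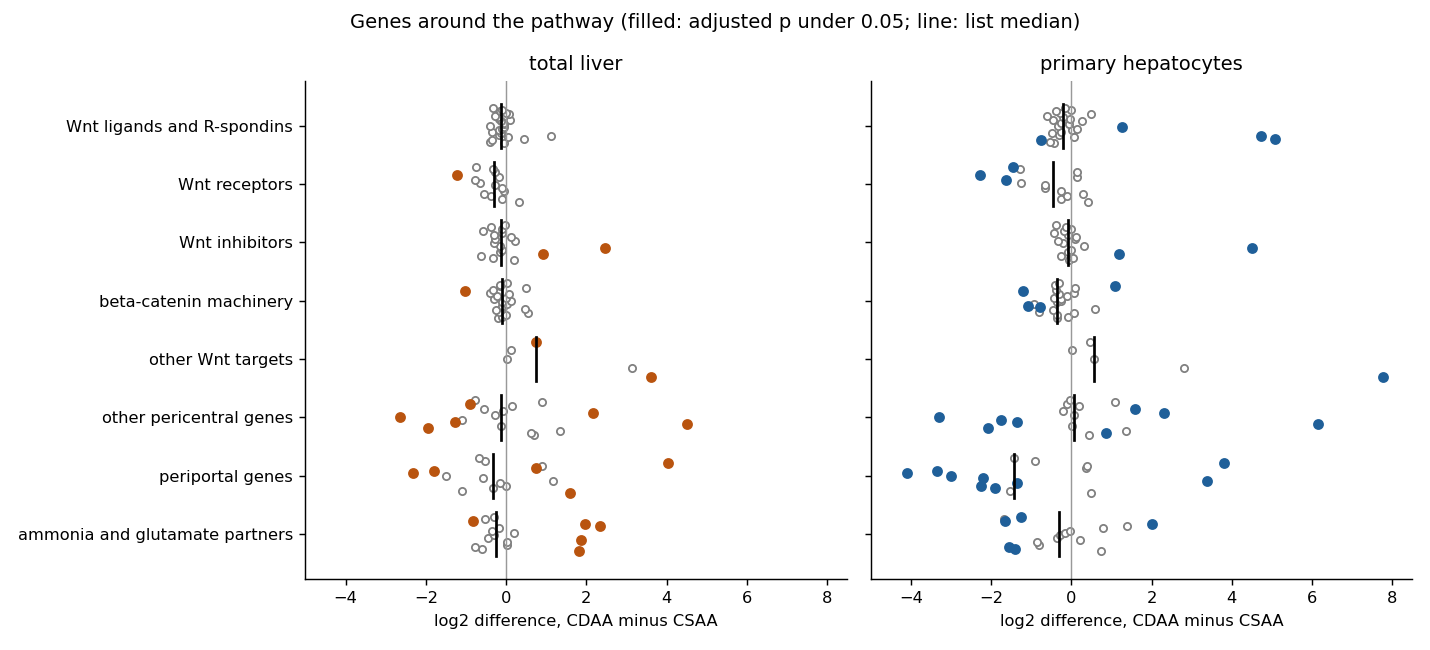
Log2 difference, CDAA minus CSAA, of every measured gene of the pathway and zonation lists in total liver (left) and hepatocytes (right). Points are genes, filled where the limma adjusted p is under 0.05, and bars are list medians. Ligands and R-spondins, all under background in total liver, have no filled point there, and receptors are filled on the lower side in both tissues.

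Other pericentral genes moved in both directions. Of 17 measured, 2 rose and 4 fell in total liver, and 4 rose and 4 fell in hepatocytes. Cyp2a5, a pericentral cytochrome P450, rose 23-fold in total liver and 70.7-fold in hepatocytes (limma adjusted p of 0.000118 and 7.13e-06). Cyp2c54 fell 6.21-fold and 9.8-fold (limma adjusted p of 0.00102 and 0.000219). Both calls held in each of the 14 fits that left out 1 array and under every scaling. Rgn, a lactonase of ascorbate synthesis, fell by 0.90 ± 0.20 in total liver on the log2 scale (limma adjusted p of 0.00784), with 0.57 under the hepatocyte scaling. Cyp2e1, the standard pericentral marker, differed by -0.28 ± 0.25 and 0.06 ± 0.28, and Cyp1a2 by -0.12 ± 0.32 and 0.02 ± 0.36 (limma adjusted p of 0.54 to 0.977). Without 1 array the counts ran from 3 to 10 in total liver, with CSAA replicate 1 or 2 or CDAA replicate 1 left out at the low end and hepatocyte CDAA replicate 1 at the high end. In hepatocytes they ran from 3 to 7, with CSAA replicate 1 or 2 or CDAA replicate 2 left out at the low end.

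The genes that handle glutamate and ammonia together with Oat and Slc1a2 also moved in both directions. Of 16 measured, 4 rose and 1 fell in total liver, and 1 rose and 4 fell in hepatocytes. None of the 16 passed the limma test of the difference between tissues. Slc1a5, a glutamine carrier, differed by 1.97 ± 0.26 and 2.02 ± 0.30 (limma adjusted p of 0.000128 and 0.000134), though all groups were under background. Gpt2, an alanine aminotransferase, rose by 1.87 ± 0.29 in total liver (limma adjusted p of 0.000615) and differed by 0.20 ± 0.34 in hepatocytes. Aldh18a1 and Slc1a4 also rose in total liver, by 1.6 to 2.1 and by 2.13 to 2.61 over the fits that left out 1 array. Aldh18a1 was called in all 14 of those fits and Slc1a4 in 9. Slc25a15, the mitochondrial ornithine carrier that brings Oat its substrate, fell by 1.67 ± 0.28 in hepatocytes and by 0.81 ± 0.25 in total liver on the log2 scale (limma adjusted p of 5e-04 and 0.048). Under the hepatocyte scaling the hepatocyte difference was -0.008 (limma adjusted p of 0.978). Slc38a3, the glutamine transporter of pericentral hepatocytes, differed by -0.30 ± 0.32 in total liver (limma adjusted p of 0.614) and fell by 1.26 in hepatocytes (limma adjusted p of 0.0248), a call lost without any 1 of the CSAA arrays or without CDAA replicate 2 or 3. The counts fell to 3 without total liver CSAA replicate 1, 2 or 4 or CDAA replicate 1 or 2, and without hepatocyte CSAA replicate 1 or 2 or CDAA replicate 2, and rose to 8 in hepatocytes without CDAA replicate 1.

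Periportal genes give the opposite end of the lobule. Of 15 measured, 3 rose and 2 fell in total liver, and 2 rose and 7 fell in hepatocytes. None of the 15 passed the limma test of the difference between tissues. Hal, histidine ammonia-lyase, fell by 1.78 ± 0.42 and 3.36 ± 0.48 on the log2 scale, and G6pc, glucose-6-phosphatase, fell by 2.31 ± 0.55 in total liver and fell by 4.09 ± 0.63 in hepatocytes (limma adjusted p of 0.0117, 0.000108, 0.0126 and 0.000214). Under the hepatocyte scaling the total liver differences were -0.32 for Hal and -0.84 for G6pc and were no longer called (limma adjusted p of 0.426 and 0.126). Of the genes that rose, Mfsd2a differed by 3.285 to 4.645 in total liver and Ctsc by 2.858 to 3.951 in hepatocytes with 1 array left out. Both were called in all 14 of those fits and in all 9 other settings. Hsd17b13 differed by 0.673 to 0.775 in total liver and was called in 11 of the 14. The total liver count was 3 without CSAA replicate 1 or CDAA replicate 1 or 3. The median difference of the periportal genes was -1.43 in hepatocytes, beside 0.06 for the other pericentral genes, -0.02 for the 7 Wnt targets, -0.74 for the hepatocyte markers and -0.13 for all probe sets. In total liver the order was another, with -0.33 for the periportal genes, -0.12 for the other pericentral genes, -0.50 for the 7 Wnt targets, -0.16 for the hepatocyte markers and -0.09 for all probe sets. The medians of the 7 Wnt targets are those of dim Tbx3 in both tissues, so their place in these orders rests on 1 gene.

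The genes with a pattern most like that of Lect2 were found by the root mean square difference of log2 values over the 14 arrays, each gene taken against its own mean within each tissue, among 19498 symbols. Pitpnc1, a phosphatidylinositol transfer protein, came closest at 0.24, with diet differences of 1.61 in hepatocytes and 0.51 in total liver. Slc38a6, a member of the amino acid transporter family that includes Slc38a3, followed at 0.33, with 0.38 in total liver. Gdf3 was the third at 0.33, with log2 values of 2.12 to 4.42, all under background.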

How the data were processed

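The deposited log2 intensities were made by the authors with RMA (background correction, quantile normalization, probe set summary), per the submitters' processing notes, with no version stated. The genome build is not given in the sources used here. Of 28846 probe sets, 6640 are controls and stayed out, and no filter was set on the other 22206. Symbols came from the platform annotation (2634 probe sets have none), and the brightest probe set stood for a gene. Limma 3.58.1 (R 4.3.3) fitted the 4 group means over all 14 arrays, with 10 residual and 5.11 prior degrees of freedom, two-sided tests and p-values adjusted by Benjamini-Hochberg over those 22206. The planned test of levels between tissues was not run, since array medians differ by tissue.

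The members and lists were chosen with earlier results of these data known. Named were all members, up to 4 called genes per pathway list and contrast with the smallest p, a fixed set of Wnt, cytochrome P450 and glutamine carrier genes, and the 3 genes most like a called member. The code was tested on simulated data. Alternatives changed the moderation, the arrays in the fit, the filter, the normalization, array weights, the replicate block and the choice of probe set.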

Additional observations from a re-analysis of the deposited data

Results flagged for a closer look

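Among 92 groups of 4 total liver arrays, from 46 named genes, 10 held an array whose gap to its nearest neighbour was past the 95% limit of Dixon's test, where chance gives about 1 in 20. Of the 7 members only Oat had such a group: CDAA replicate 3, at 15.82 with the next array at 14.30, had a gap of 0.857 of the group's range. The other gaps are given as the same share. On CSAA the arrays were replicate 2 for Fzd8 (0.848), Frzb (0.891) and Cyp2a5 (0.904), replicate 3 for Tnfrsf19 (0.898) and replicate 1 for Rgn (0.934) and Hsd17b13 (0.857). On CDAA they were replicate 1 for Aldh1a1 (0.87) and Cyp1a2 (0.885) and replicate 2 for G6pc (0.858).

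The diet difference passed the limma test of a difference between tissues in 4 named genes, none of them a member. The fitted difference, total liver minus hepatocytes, was -4.64 for Rspo3, -3.61 for Wls, -2.03 for Frzb and -4.16 for Cd44 on the log2 scale. All 4 were under background in CSAA hepatocytes and in CSAA total liver, and but for Cd44 in CDAA total liver too, so the sizes are not known.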

How the results depend on the processing

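Counts of called members, 0 in total liver, 1 in hepatocytes and 0 for the difference between tissues, moved as follows. In total liver the count was 1 (Slc1a2, lower) with the tissue's arrays fitted alone, with centring on array medians and with array weights, and 5 (all higher) with centring on the hepatocyte genes. In hepatocytes it was 0 with the tissue's arrays alone, 2 with joint quantile normalization and with array weights (Lect2 and Notum), and 6 with centring on the hepatocyte genes. For the difference between tissues it was 1 (Lect2) with array weights. Leaving out 1 array gave 0 to 1 in total liver, where Slc1a2 was called without CDAA replicate 3, and 1 to 2 in hepatocytes, where Notum was called without CDAA replicate 1 and Oat without CDAA replicate 3. The cause was not tested. Other settings kept these counts: trend and robust moderation, leaving out the dimmest probe sets and averaging probe sets.

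The split of all calls also moved. It was 1494 higher and 785 lower in total liver and 2439 and 1719 in hepatocytes on the deposited scale. With each tissue's arrays fitted alone the split was 2603 and 2010, and 1450 and 433. In hepatocytes that fit ended the calls of Wnt2, Rspo2, Fzd8, Lrp6, Dkk3, Dvl1, Tle4, Ctnnbip1, Aldh1a1, Cyp2c50, Aldh4a1 and Slc38a3. Their limma adjusted p ran from 0.0657 (Dkk3) to 0.24 (Lrp6), and Lect2 lost its call there too. Centring on array medians gave 1265 and 1650, and 2149 and 3244. Joint quantile normalization gave 1252 and 851, and 2360 and 3068. Centring on the hepatocyte genes, which were themselves lower on CDAA, gave 21253 and 87, and 20481 and 123. Centring on array medians set the median difference of all probe sets at -0.23 and -0.29.

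With centring on the hepatocyte genes these log2 differences changed sign, in total liver Tbx3 (0.97), Oat (0.72), Notum (0.92), Wnt2 (1.40), Lgr4 (0.25), Tle1 (0.45), Rgn (0.57), Cyp2c37 (0.20), Wnt9b (1.13), Znrf3 (1.44), Cyp2e1 (1.19), Cyp1a2 (1.34) and Slc38a3 (1.16). In hepatocytes they were Lgr5 (1.53), Tbx3 (1.65), Slc1a2 (0.93), Notum (0.97), Rspo2 (0.90), Fzd8 (0.033), Lrp6 (0.20), Tle1 (0.45), Dvl1 (0.57), Ctnnbip1 (0.89), Got1 (0.11), Aldh4a1 (0.26), Wnt9b (1.49), Znrf3 (1.27) and Slc38a3 (0.40), and the difference between tissues of Notum (-0.051). The same centring kept the sign but ended the call of Hal (-0.32) and G6pc (-0.84) in total liver and of Lgr4 (-0.61), Cyp2c50 (-0.09), Cyp2f2 (-0.54) and Slc25a15 (-0.008) in hepatocytes. Array weights turned the difference between tissues of Axin2 (0.43) and Tbx3 (0.022) and the total liver difference of Wnt2 (0.049), Znrf3 (0.066) and Cyp1a2 (0.007). Centring on array medians turned Lgr5 in total liver (-0.059) and Cyp2e1 (-0.10) and Cyp1a2 (-0.14) in hepatocytes, and joint quantile normalization turned Lgr5 in total liver (-0.13).

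Leaving out 1 array turned differences that were near 0 against their error. The ranges in total liver were -0.16 to 0.29 for Lgr5, -0.25 to 0.13 for Wnt2, -0.23 to 0.10 for Znrf3 and -0.29 to 0.15 for Cyp1a2. In hepatocytes they were -0.12 to 0.99 for Axin2, -0.74 to 0.18 for Lgr5, -0.66 to 0.35 for Tbx3, -0.23 to 0.30 for Cyp2e1 and -0.25 to 0.32 for Cyp1a2. For the difference between tissues they were -0.54 to 0.57 for Axin2, -0.10 to 0.82 for Lgr5, -0.85 to 0.16 for Tbx3 and -0.085 to 0.54 for Notum.

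The main fit did not pair arrays by replicate number. Whether the numbers mark pairs is not settled, since the hepatocyte correlations had mixed signs and differently numbered arrays were not compared. The deviations of same-numbered arrays had correlations of 0.35, -0.21 and 0.26 (hepatocytes) and of 0.02, -0.01, -0.13 and -0.02 (total liver). With the replicate block the counts of called members were 0, 1 and 0, and the limma adjusted p of Slc1a2 in total liver was 0.052. The dimness of Axin2, Lgr5, Tbx3 and Notum limits what these arrays can show of them.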
